A study of Mus musculus with 48 samples.

Results

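HRM-1 is an orthotopic mammary tumor model on the FVB/N background, and its 4 tumors were set against the 16 tumors of the 4 other FVB/N models, 6DT1, M6, MVT-1 and Met-1. Members were chosen by the model named in the sample title, which gave 4 of the 48 tumors of 12 models. Per the labels, all 5 FVB/N models came from tumors of genetically engineered mice. The MVT-1 line was derived from an FVB/N tumor carrying Myc and VEGF transgenes under the MMTV promoter, which is active in mammary epithelium. For HRM-1, 6DT1, M6 and Met-1 the engineered allele is not given in the sources used here. All groups followed the same outline: cells of 1 line per model were placed in the number 4 mammary fat pad of immunocompetent females of the matched strain, aged 6 to 8 weeks, and tumors were taken at a diameter of 0.5 to 1.0 cm, cut free of neighboring normal and dead tissue. The number of cells and the time of growth differed between the models for which they are given, and for HRM-1 neither is given in the sources used here. No tumor was treated. Because each model is 1 line, what belongs to an engineered allele, to the line itself and to the response of its host cannot be told apart.

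RNA of every tumor was measured on its own Affymetrix array and is given as log2 signal, so that a difference of 1 is a 2-fold change. Genes are compared between tumors, never with each other. A difference was called with limma at an adjusted p under 0.05, and a gene was said to differ from each model only where all 4 pairwise contrasts (HRM-1 minus 6DT1, M6, MVT-1 and Met-1) were called in the same direction. The tumors hold host cells as well as tumor cells, and in such bulk samples fewer cells of a type and less RNA per cell cannot be told apart.

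Several genes met below belong to circuits that check the growth of tumor cells. Myc is a transcription factor that drives ribosome production and growth. The products of the Cdkn2a and Cdkn2b genes hold back the cell cycle through the retinoblastoma protein and p53, and Mdm2 marks p53 for destruction. Cells show pieces of their proteins to T cells on major histocompatibility complex (MHC) class I molecules, after the immunoproteasome has cut the proteins and the Tap transporter has carried the pieces into the endoplasmic reticulum.

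The HRM-1 tumors resembled each other closely. Across 19938 genes each correlated best with another HRM-1 tumor (r of 0.9954 to 0.9973), and their nearest neighbors outside the model were TS/A-E1 tumors, a BALB/c model, at r of 0.9769 to 0.9795. Of the 16 other FVB/N tumors, 6DT1 replicate 4 was nearest to an MVT-1 tumor and Met-1 replicate 2 to an F311 tumor. The mean of 10 adipocyte or 7 B cell genes, taken relative to each gene's median over the series, was above 2.5 in 6DT1 replicates 2 and 3 and Met-1 replicate 2 and in no HRM-1 tumor, and such tumors are called host-rich below. HRM-1 replicate 4 had a B cell score of 1.39, against at most -0.04 in the other HRM-1 tumors. Without the 3 host-rich tumors (and 5 of other strains), 946 genes were higher and 344 lower in HRM-1 than in each model, compared with 805 and 256 when all tumors were used, and 666 of the 805 and 203 of the 256 were called in both. Where this ended a call on a gene described below as different from each model, the value is given beside it.

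HRM-1 differed from the other FVB/N models at many genes. Relative to the mean of the 4 models, 3384 genes were higher (17% of 19938) and 2469 lower (12.4%), together 29.4%. The numbers of genes called against 6DT1, M6, MVT-1 and Met-1 were 6987, 6237, 4090 and 5992, or 35%, 31.3%, 20.5% and 30.1%. The split depended on scaling, most against Met-1, where 56.8% of the calls were higher in HRM-1 as deposited and 67.9% when each array was centred on its median. The same change moved it to 65.7% against the mean, beside 57.8% as deposited, and to 59.2% against M6, beside 52.2%. Differences from each model were rarer, with 805 genes higher (4.04%) and 256 lower (1.28%). All 4 HRM-1 tumors lay above the 16 others at 4.4% of all genes and below them at 1.34%, and 3.08% were both higher than in each model and without overlap. Of the genes that differed from each model, 130 were above and 22 below all 44 other tumors of the series.

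Pkhd1, Cdkn2b and Myc were taken as markers of HRM-1, and of these Pkhd1 set it apart most evenly. It encodes fibrocystin, a membrane protein of primary cilia whose loss causes recessive polycystic kidney disease in humans. Its log2 signal was 8.93, 9.0, 9.08 and 9.14 in the 4 HRM-1 tumors, against a lowest value of 5.36, a median of 5.61 and a highest of 5.69 in the 16 others. The groups did not overlap, and the difference from the mean of the models was 3.45 ± 0.05 (SE), or 10.9-fold (limma, adjusted p = 4.03e-37). The difference was nearly the same from every model, between 3.40 and 3.49. No tumor of the 7 models of other strains came above 5.83. Its measured neighbors on chromosome 1 were not higher, as Tfap2b was called lower (-1.38), a call lost without any 1 of the 4 HRM-1 tumors, and Mir206 was not called. Of 19 genes of polycystic kidney disease and the primary cilium, 5 were higher and 6 lower than the mean of the models (17% and 12.4% of all genes), and Pkhd1 alone was higher than in each model. When the host-rich tumors were left out, Kif3a and Kif3b were also higher and Tmem67, a gene of the ciliary transition zone, lower than in each model. The kinesin genes Kif3a and Kif3b, whose products carry cargo into the cilium, were higher by 0.66 and 0.29, and Pkd1, the gene for polycystin-1, was lower by 0.49 but not against Met-1 (0.00).

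**Figure D1:**
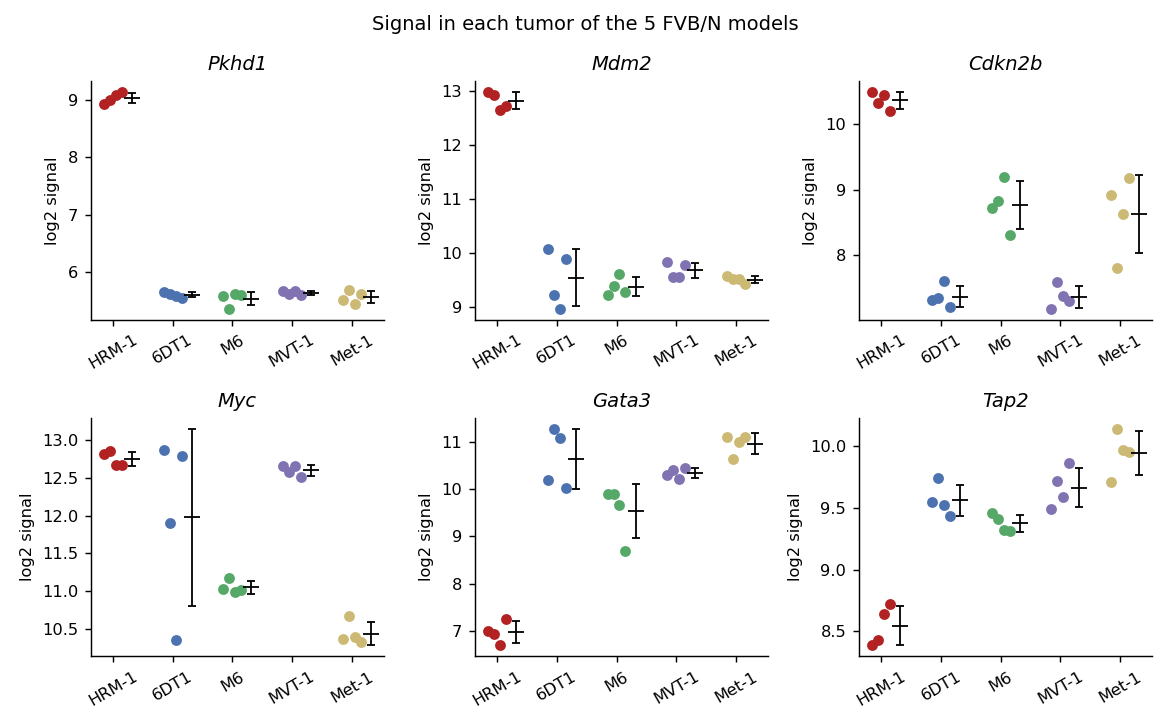
Log2 signal of 6 genes in each tumor of the 5 FVB/N models, HRM-1 at the left of each panel; points are tumors, and the bar beside them gives the mean and SD of the 4. The HRM-1 tumors lie above all others for Pkhd1, Mdm2 and Cdkn2b, below all others for Gata3 and Tap2, and among the MVT-1 and 6DT1 tumors for Myc. Mdm2 and Gata3 were picked among genes without overlap.

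The genes with the widest gap to the nearest FVB/N model included a group that sits side by side on chromosome 10. Cpm, the gene for carboxypeptidase M, a membrane enzyme that trims peptides, had a log2 signal of 13.27, 13.22, 12.77 and 13.22 in HRM-1 tumors, against 5.22, 5.82 and 9.57 (lowest, median and highest) in the 16 others. The difference from the mean of the models was 6.54 ± 0.47 (SE), or 93.1-fold, and it was 5.04 from Met-1, the nearest. Mdm2, the gene of the ubiquitin ligase for p53, had 12.98, 12.91, 12.65 and 12.71 in HRM-1 tumors, against 8.96, 9.53 and 10.07 in the others. Genes with the widest gap were picked among those without overlap with the 16 others, so the lack of overlap is no added result. The difference at Mdm2 was 3.29 ± 0.11 (SE), or 9.81-fold (limma, adjusted p = 3.88e-25). Nup107, a component of the nuclear pore, was at 12.00, 11.87, 11.10 and 11.83, against 7.72, 8.29 and 8.80. Slc35e3, a gene of the nucleotide sugar transporter family, was at 11.99, 11.84, 11.23 and 11.89, against 6.75, 8.26 and 9.19. Mdm1, whose product binds microtubules at centrioles, was at 11.85, 11.91, 11.88 and 11.84, against 7.01, 7.77 and 8.54. These 5 genes were above all 44 other tumors of the series.

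The order of measured genes on the assembly GRCm38.p6 (RefSeq) gave the length of this row of higher genes. Cpm, Mdm2, Slc35e3, Nup107, Rap1b, Mdm1 and Iltifb are 7 neighbors in a row, and all 7 were higher in HRM-1 than in each model, with a median difference of 3.31. Rap1b, a small GTPase of the Ras superfamily, was higher by 1.25 ± 0.06 (SE) and Iltifb, a copy of the interleukin-22 gene, by 0.45 ± 0.07 (SE). Iltifb and its near-identical copy may share probes, so its value is uncertain. Its signal was low, at a mean of 5.31 in HRM-1 against 4.83 to 4.90 in the other models, and the tumors overlapped. Beyond the row, Cpsf6 on one side and Ifng, the interferon-gamma gene, on the other differed by -0.13 and -0.15, and neither was called. Ifng had model means of 6.39 to 6.93, near or below the array medians, so whether the higher signal ends there is uncertain. Farther out, Dyrk2 was not called (0.17), but Cand1 was above all 16 others (0.48). Cand1 was called against 6DT1, M6 and Met-1 and not against MVT-1. HRM-1 replicate 3 was the lowest of the 4 tumors at 6 of the 7 genes, Mdm1 being the exception. Replicate 3 also had the highest mean over 16 fibroblast and matrix genes, -0.03, against -0.76 to -0.56 in the other 3, and whether that has a part in its lower values was not tested.

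Other rows of this kind were shorter. The requirement of at least 3 consecutive measured genes, all called against each model, was met by 11 rows of higher genes and 1 row of lower genes among 19856 placed genes, a description that was added after the data were seen. The second longest had 6 genes on chromosome 5, Cldn12, Gtpbp10, Gm8773, Cfap69, Steap2 and Steap1. Steap2 and Steap1, genes of metalloreductases of the cell membrane, were higher by 2.65 and 2.47, and without the host-rich tumors all but Gm8773 were still called against each model, whereas Cdk14 and Zfp804b on the 2 sides of the row were not called. Of the other 9 rows of higher genes, each of 3, 6 lay on chromosome 1, but without the host-rich tumors 4 of the 9, 3 of them on chromosome 1, lost a member and with it the length required.

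**Figure D2:**
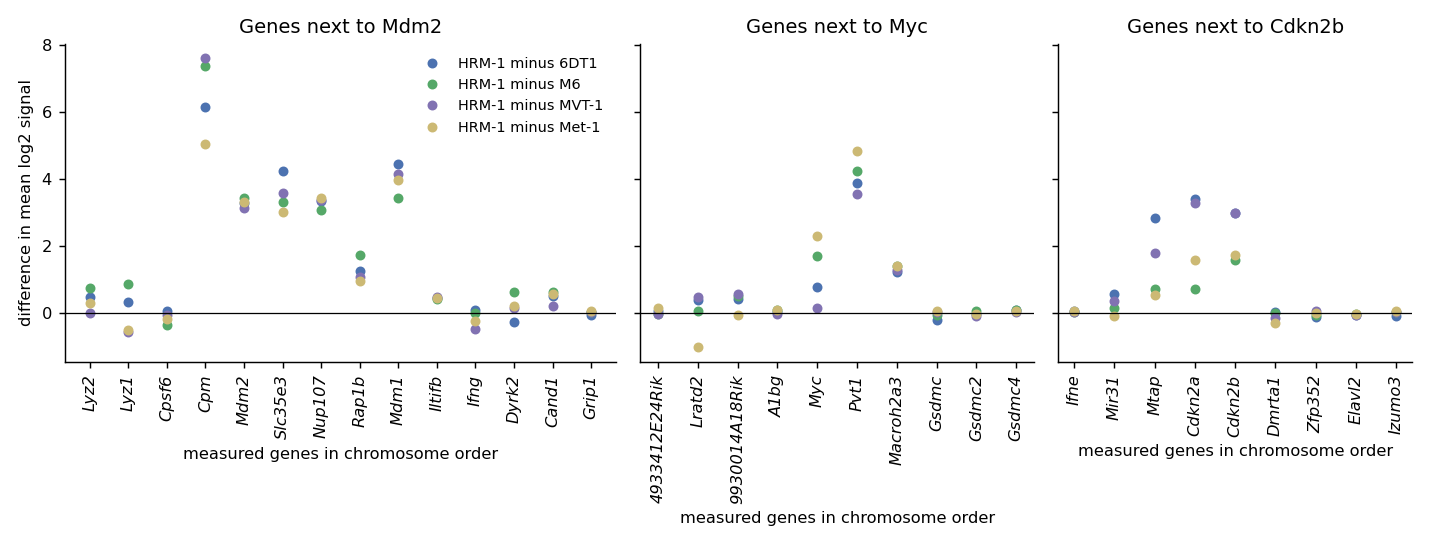
HRM-1 minus each of the 4 other FVB/N models in mean log2 signal, for measured genes in chromosome order around Mdm2 (chromosome 10), Myc (chromosome 15) and Cdkn2b (chromosome 4). From Cpm to Iltifb all 4 differences are above 0, at Pvt1 and Macroh2a3 all 4 differences exceed 1, while at Myc that from MVT-1 is 0.15, and at Cdkn2a and Cdkn2b the differences from 6DT1 and MVT-1 exceed those from M6 and Met-1.

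Genes higher than in each model were spread unevenly over the chromosomes. The share of measured genes in this class was 8.88% on chromosome 13 (65 of 732), 8.56% on chromosome 1 (96 of 1122), 7.89% on chromosome 10 (74 of 938) and 7.19% on chromosome 5 (82 of 1140). It was 1.21% on chromosome 4 (14 of 1154), 1.26% on chromosome 8 (12 of 955) and 1.61% on chromosome 7 (28 of 1734). For lower genes the share was highest on chromosome 18, at 3.4% (16 of 471). The median difference over all genes of a chromosome was 0.03 on chromosome 13 and -0.06 on chromosome 4.

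**Figure D3:**
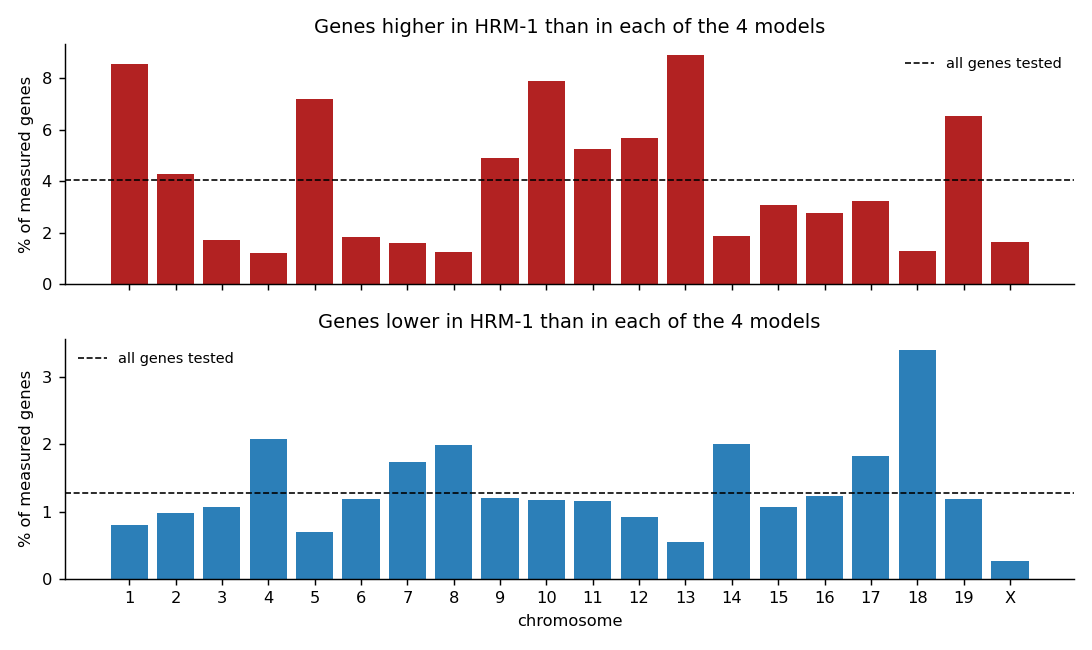
Share of the measured genes of each chromosome that were higher (top) or lower (bottom) in HRM-1 tumors than in each of the 4 other FVB/N models, with the share over all genes as a dashed line (4.04% and 1.28%). Chromosomes 1, 5, 10 and 13 exceed 7% for higher genes, and chromosomes 3, 4, 6, 7, 8, 14, 18 and X stay under 2%.

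Myc itself was high in HRM-1 but not particular to it. Its log2 signal was 12.81, 12.85, 12.67 and 12.68 in HRM-1 tumors, against 10.33, 11.10 and 12.87 (lowest, median and highest) in the 16 others. HRM-1 exceeded Met-1 by 2.31, M6 by 1.70 and 6DT1 by 0.77 (limma, adjusted p = 1.5e-09, 7.52e-07 and 0.0143), while the difference from MVT-1, the line derived from a Myc transgenic tumor, was 0.15 (adjusted p = 0.755). The 6DT1 tumors were split, at 12.87 and 12.79 in replicates 1 and 4 and at 11.91 and 10.35 in the host-rich replicates 2 and 3. Without the host-rich tumors the difference from 6DT1 was -0.08 (limma, adjusted p = 0.556), so that the call against this model rested on them. Pvt1, a long noncoding RNA gene next to Myc, separated HRM-1 from every model. It was at 12.18, 12.18, 12.10 and 11.96 in HRM-1 tumors, against 7.07, 7.89 and 9.0 in the others, a difference of 4.13 ± 0.16 (SE), or 17.5-fold. The difference from MVT-1 was 3.55, in the model whose Myc signal was not called different. Macroh2a3, the next measured gene and a histone gene, was higher by 1.33 ± 0.06 (SE), and A1bg and Gsdmc on the outer sides were not called. TS/A-E1 came closest to HRM-1 in Pvt1 signal, reaching 11.44.

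Genes that Myc is known to induce for growth and ribosome production were higher as a group. Of 32 measured members, 28 were higher than the mean of the 4 models and none was lower, against 17% and 12.4% of all genes, and the median difference was 0.54, against -0.01 over all genes. Of the 32, 15 were higher than in each model, against 4.04% of all genes. The medians were 0.56 against 6DT1, 0.49 against M6, 0.47 against MVT-1 and 0.64 against Met-1, so the group was also higher than in MVT-1 tumors, where 19 of 32 were called (11.4% of all genes were called higher than in MVT-1). Against 6DT1 the group depended on the host-rich tumors. Of the 32, 26 were called higher than in 6DT1 with all tumors and 10 without the host-rich ones (20.3% and 17.9% of all genes), the median there falling to 0.20, and those higher than in each model numbered 9. Odc1, the rate-limiting enzyme of polyamine synthesis, was at 11.04, 10.98, 10.84 and 11.03 in HRM-1 tumors, against 8.71, 9.87 and 10.34 in the others (difference 1.18 ± 0.17, SE). Hspd1, a mitochondrial chaperonin gene, was at 12.06, 12.01, 12.03 and 12.04, against 10.80, 11.29 and 11.70 (0.79 ± 0.09, SE). Both genes were above all 16 others in every HRM-1 tumor (4.4% of all genes). Pa2g4, a regulator of cell growth, rose by 0.71, the ribosome assembly factor Nop16 by 0.58 and the cyclin-dependent kinase gene Cdk4 by 0.38. Nop16 was not called against 6DT1 without the host-rich tumors (0.19). Outside FVB/N, E0771 tumors went beyond the HRM-1 range of Odc1, at up to 11.92.

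Myc binds the E-box CACGTG, which reads the same on both strands. It was present in the 250 bases before the start of 6 of the 26 members that matched a RefSeq promoter (23.1%), against 8.11% of 15614 tested genes with a promoter. The 6 were Cdk4, Hspd1, Nme1, Ldha, Eif4e and Eif4a1, and of these Cdk4 and Hspd1 were higher than in each model. The sequences before these 2 starts are shown, from RefSeq on GRCm38.p6 and 5′ to 3′ in the direction of the gene, with E-boxes in capitals. Cdk4 has 4 copies, a number reached or passed by 4 tested genes including Cdk4 itself. A match is a description of the letters, not a site shown to be bound.
Cdk4, plus strand, chr10:127063355-127063534: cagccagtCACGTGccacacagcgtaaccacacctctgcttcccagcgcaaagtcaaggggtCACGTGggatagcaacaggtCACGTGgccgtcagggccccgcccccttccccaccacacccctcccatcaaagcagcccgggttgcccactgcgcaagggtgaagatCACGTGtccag
Hspd1, minus strand, chr1:55088291-55088350: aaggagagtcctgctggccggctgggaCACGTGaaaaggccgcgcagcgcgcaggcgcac

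Other members of the Myc network moved less. Of 13 genes with Myc included, 5 were higher, Myc among them, and 2 lower (17% and 12.4% of all genes). Mxi1, which competes with Myc for its partner Max, was at 10.18, 9.99, 9.87 and 9.82 in HRM-1 tumors, against 8.19, 9.30 and 9.77 in the others, and was the one member higher than in each model. Mxd3, a relative of Mxi1, was lower by 0.61. Few genes of proliferation were called against the mean of the models. Of 21, Mcm6 was called higher (0.38) and Mki67, the marker of cycling cells, lower (-0.52), and the median difference was 0.00. The call on Mcm6 was lost without HRM-1 replicate 1, 3 or 4, and that on Mki67 without M6 (-0.27). Without the host-rich tumors 8 of the 21 were lower than the mean of the models and 1 was higher (3342 and 3927 of all 19938 genes). In that setting 1 was higher than in 6DT1 (17.9% of all genes). With all tumors the same list, set against single models, moved both ways, with 11 of 21 higher than in 6DT1 tumors and 16 of 21 lower than in M6 tumors (20.3% of all genes were higher than in 6DT1 and 14.9% lower than in M6).

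**Figure D4:**
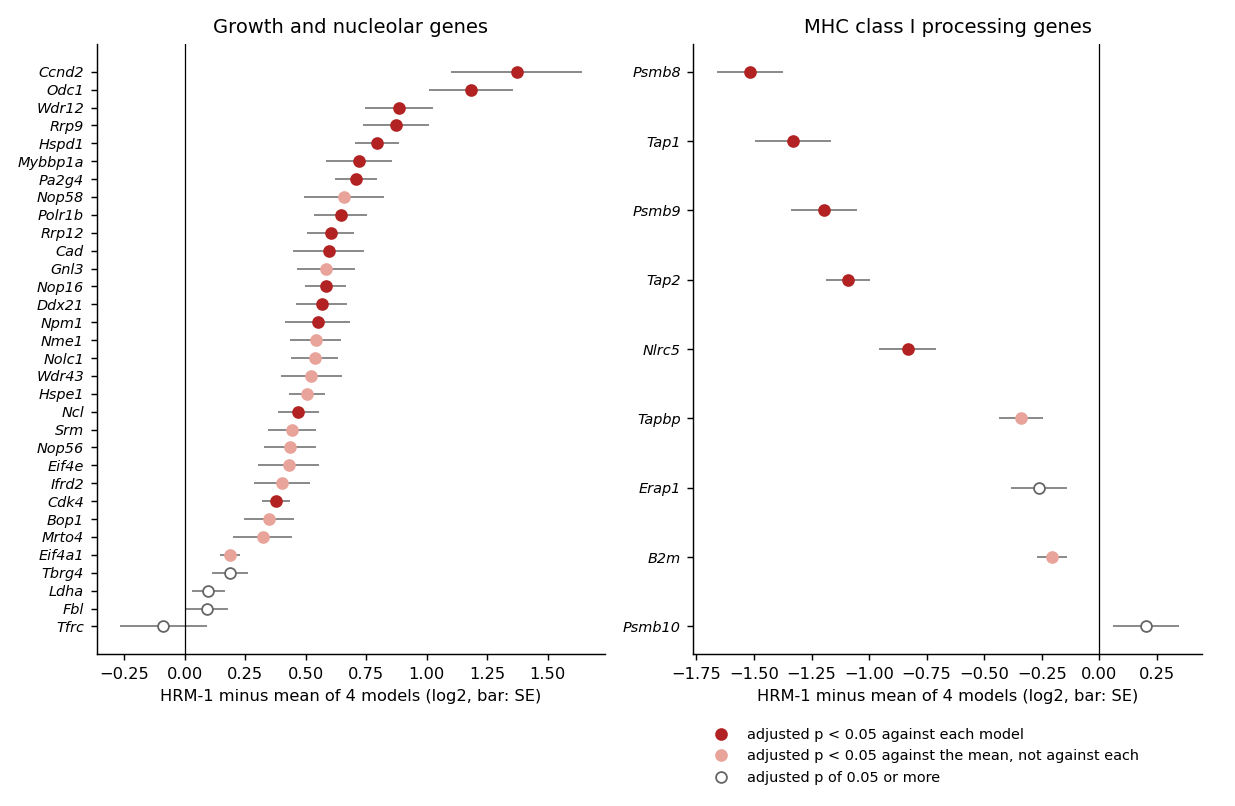
HRM-1 minus the mean of the 4 other FVB/N models in log2 signal (points, with SE) for the 32 growth and nucleolar genes and the 9 genes of MHC class I processing. Of the growth genes 28 were called higher, and of the processing genes 7 were called lower, 5 of them against each model.

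Cdkn2b, the gene of the inhibitor p15 of Cdk4 and Cdk6, was highest in HRM-1 among all 12 models. Its log2 signal was 10.49, 10.32, 10.44 and 10.21 in HRM-1 tumors, against 7.19, 7.71 and 9.20 in the 16 others, with no overlap. The difference from the mean of the models was 2.33 ± 0.23 (SE), or 5.03-fold (limma, adjusted p = 3.35e-10), and it was largest from MVT-1 (3.0) and 6DT1 (2.99). The adjoining Cdkn2a, which encodes p16 and p19Arf, was at 10.68, 10.50, 10.64 and 10.41, against 6.99, 7.64 and 10.19. It was called against 6DT1, MVT-1 and Met-1 (3.42, 3.27 and 1.60) and not against M6 (0.72, adjusted p = 0.127), a contrast that was called without the host-rich tumors (limma, adjusted p = 6.45e-05). Mtap, the next gene and an enzyme of methionine salvage, was above all 16 others too but was called against 6DT1 and MVT-1 alone. The other 4 of the 6 CDK inhibitor genes measured were lower relative to the mean of the models. Cdkn2c, the gene of p18, was at 8.12, 7.83, 8.07 and 8.06 in HRM-1 tumors, against 8.10, 9.97 and 11.12 in the others. It was not called against MVT-1 (-0.81) with all tumors, nor against 6DT1 (-0.27) without the host-rich ones. Cdkn2d, Cdkn1c and Cdkn1b fell by 0.31, 0.31 and 0.19. The call on Cdkn2d was lost after quantile normalization and without M6, and that on Cdkn1c without 6DT1. The call on Cdkn1b was lost without HRM-1 replicate 2 or 4 or the host-rich tumors, and its sign turned without M6 (0.02). Of 15 cyclin, kinase and retinoblastoma genes, Cdk4 and Ccnd2 (cyclin D2, 1.37) were higher and Rb1 (-0.85), the retinoblastoma gene, lower than in each model. Without the host-rich tumors Rb1 was not called against 6DT1 (-0.18).

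Targets of p53, Mdm2 among them, were higher than the mean of the models or were not called. Trp53 itself and the targets Cdkn1a, Bax and Gdf15 were not among the measured genes. Of 15 measured members, 10 were higher and none lower, against 17% and 12.4% of all genes, and the median difference was 0.56. Set against 6DT1, M6, MVT-1 and Met-1, 5, 10, 5 and 10 members were higher (20.3%, 16.3%, 11.4% and 17.1% of all genes). Against single models, 1 member was lower than in 6DT1, 1 lower than in M6 and 1 lower than in MVT-1. Higher than in each model were 3 of the 15 (4.04% of all genes), Mdm2, Ccng1 and Aen. Ccng1, the cyclin G1 gene, was at 12.46, 12.43, 12.20 and 12.44 in HRM-1 tumors, against 11.12, 11.81 and 12.03 in the others. Aen, a nuclease gene of p53-dependent apoptosis, was at 8.38, 8.67, 8.52 and 8.49, against 7.54, 7.72 and 8.31. Neither overlapped, at differences of 0.69 and 0.71 (4.4% of all genes were above the 16 others). Aen was not called against 6DT1 without the host-rich tumors (0.30, limma, adjusted p = 0.0725). Zmat3, an RNA-binding target of p53, and Tnfrsf10b, a death receptor gene, were higher by 1.05 and 1.15 and were each called against 3 models, though Zmat3 not against 6DT1 without the host-rich tumors (0.03).

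The 12 higher genes with the widest gap from the nearest model held 5 more besides Pkhd1, Pvt1 and those next to Mdm2. Tmprss11e, a membrane serine protease gene, was at 10.79, 10.96, 10.88 and 10.84 in HRM-1 tumors, against 5.18, 5.88 and 6.40 in the others (5.04 ± 0.42, SE), and 4T1 tumors reached 11.15. Plac1, a gene best known from placenta, was at 10.59, 10.51, 10.98 and 10.50, against 5.99, 6.46 and 8.78 (3.87 ± 0.26, SE). Hgfac, the activator protease of hepatocyte growth factor, was at 9.63, 8.85, 9.36 and 9.32, against 5.63, 5.87 and 6.10 (3.42 ± 0.09, SE). Lack of overlap with the 16 others was a condition for entering this list and is not a result. Gpr50, an orphan receptor related to melatonin receptors, and Adamdec1, a metalloprotease gene, were higher by 2.94 and 2.95. Plac1 closed this list with a difference of 2.77 from the nearest model, and Fndc3c1, the first gene left out, had 2.77 as well.

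**Figure D5:**
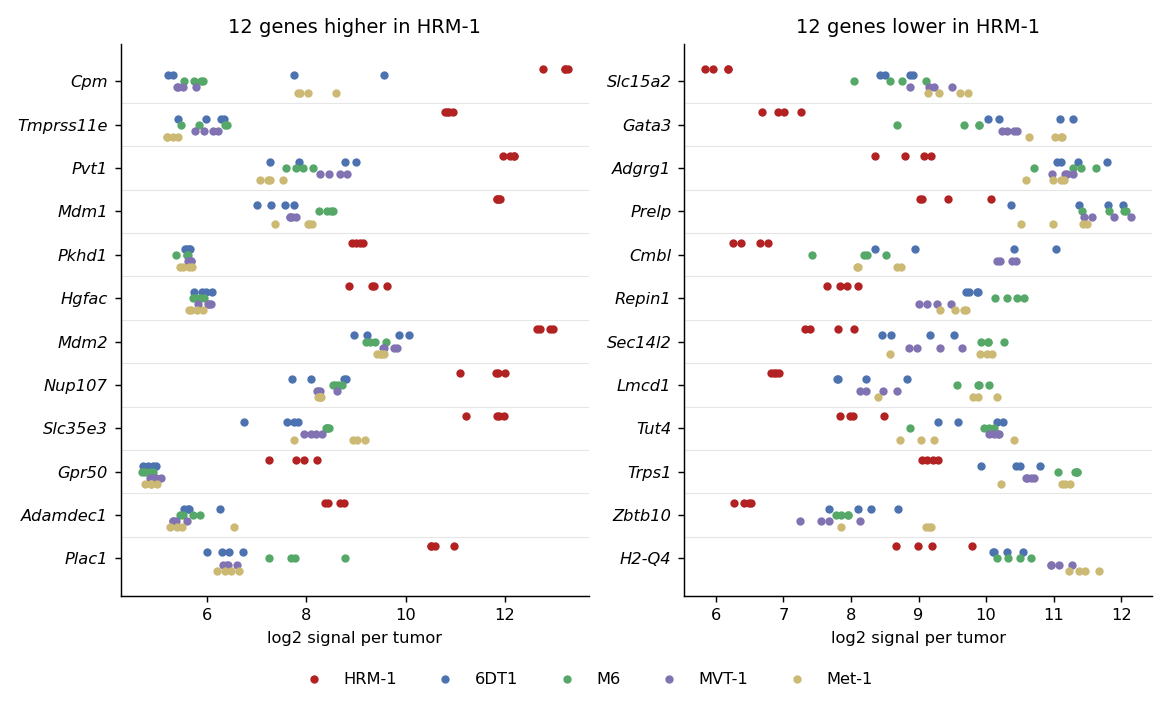
Log2 signal per tumor for the 12 genes higher (left) and the 12 genes lower (right) in HRM-1 with the largest difference from the nearest FVB/N model; each point is a tumor, in the color of its model, with HRM-1 uppermost in each row. No HRM-1 point overlaps the points of another model within a row, and the gap is wider at the left.

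Gata3 was among the genes most reduced in HRM-1. It encodes a transcription factor needed for the luminal cells of the mammary gland. Its log2 signal was 7.0, 6.92, 6.69 and 7.25 in HRM-1 tumors, against 8.68, 10.36 and 11.29 (lowest, median and highest) in the 16 others, a difference of -3.41 ± 0.30 (SE), or 10.6-fold (limma, adjusted p = 3.49e-11). HRM-1 had the lowest mean of the 12 models. Trps1, a repressor with a GATA-type zinc finger, was at 9.13, 9.29, 9.06 and 9.21, against 9.92, 10.76 and 11.35, and lay below all 44 other tumors of the series. Both genes were picked among those without overlap between HRM-1 and the other FVB/N tumors, and the difference at Trps1 was -1.65. Luminal genes moved both ways. Of 19, 9 were higher and 5, Gata3 among them, lower than the mean of the models (17% and 12.4% of all genes). Cldn4, a tight junction gene, was at 11.59, 11.31, 11.87 and 11.79 in HRM-1 tumors, against 7.49, 8.41 and 10.57, and was the one member higher than in each model (2.91 ± 0.33, SE). Krt7, a keratin of simple epithelium, was above all 16 others (3.17) but was not called against M6, and the keratins Krt8 and Krt18 were higher by 0.79 and 1.05. All 3 keratins were called against each model when the host-rich tumors were left out. Elf5, a factor of the secretory lineage, and Kit, a receptor of luminal progenitors and mast cells, were lower than the mean by 1.99 and 1.93. Elf5 was not called against M6 or MVT-1 nor, relative to the mean, without Met-1 (-1.12), and Kit was not called against MVT-1. Neither was lower than 6DT1 without the host-rich tumors (0.04 and 0.06). Of 15 basal genes 4 were higher and 1 lower (17% and 12.4% of all genes), and none was called against each model.

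Slc15a2, a peptide transporter gene, was the lower gene with the widest gap. It was at 5.85, 5.95, 6.17 and 6.18 in HRM-1 tumors, against 8.04, 9.02 and 9.73 in the others (-2.95 ± 0.21, SE), while models outside FVB/N reached no more than 7.24. Adgrg1, an adhesion receptor gene, was at 8.80, 8.35, 9.18 and 9.08, against 10.59, 11.16 and 11.79 (-2.32 ± 0.25, SE). Repin1, a zinc finger gene, was at 7.93, 7.65, 8.11 and 7.84, against 9.01, 9.71 and 10.56 (-1.86 ± 0.10, SE). For the lower genes too, lack of overlap with the 16 others was a condition of the choice. The remainder of the 12 were Prelp, a proteoglycan gene of connective tissue (-2.13), the hydrolase gene Cmbl (-2.61), the lipid carrier gene Sec14l2 (-1.82), the LIM domain gene Lmcd1 (-2.11), Tut4, whose product adds uridines to microRNA precursors (-1.68), the zinc finger gene Zbtb10 (-1.72) and H2-Q4 (-1.63). H2-Q4 is an MHC class I gene with close relatives that can share probes, and its value is uncertain for that reason.

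The machinery that prepares peptides for MHC class I was lower in HRM-1 tumors. Of 9 measured genes, 7 were lower and none higher, against 12.4% and 17% of all genes, and the median difference was -0.83. Tap2, a chain of the peptide transporter, was at 8.39, 8.43, 8.64 and 8.72 in HRM-1 tumors, against 9.31, 9.57 and 10.14 in the others. Tap1, its partner chain, was at 8.76, 8.41, 8.69 and 9.23, against 9.47, 9.97 and 11.03. Both were below all 16 others (1.34% of all genes), at differences of -1.09 ± 0.09 and -1.33 ± 0.17 (SE; limma, adjusted p = 1.5e-11 and 6.4e-08). Psmb8, an immunoproteasome subunit, was at 8.39, 8.38, 8.48 and 8.77, against 9.23, 9.86 and 10.94 (-1.52 ± 0.14, SE). Psmb9, another, was at 8.50, 8.43, 8.62 and 9.03, against 9.22, 9.76 and 10.50 (-1.20 ± 0.14, SE). Nlrc5, the transactivator of MHC class I genes, was lower by 0.83, with the highest HRM-1 value of 9.60 above the lowest other value of 9.54. Tap2, Psmb8 and Tap1 were below all 44 other tumors. HRM-1 replicate 4 was the highest of the 4 at all 5 genes. It also had the raised B cell score and a T and NK cell score of 0.05, against -1.02 to -0.93 in the other HRM-1 tumors, and the part of host immune cells in these values was not tested. Tapbp and B2m, the genes for tapasin and beta-2 microglobulin, fell by 0.34 and 0.20 and were each called against 2 models, B2m not without HRM-1 replicate 3, and the values for Psmb10 (0.20) and Erap1 (-0.26) were not called.

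Psmb9, Tap1, Psmb8 and Tap2 lie next to each other on chromosome 17 and formed the one row of lower genes. On the outer sides of this row H2-DMa was higher than the mean of the models (0.65) and H2-Ob was not called. H2-DMa was called against 6DT1 and M6 (1.06 and 1.80) and not against MVT-1 or Met-1 (-0.02 and -0.24). Brd2, the next measured gene beyond H2-DMa, was lower than in each model (-0.24 relative to their mean). Tap1 and Psmb9 are read in opposite directions from one stretch of 225 bases, shown from RefSeq on GRCm38.p6 because both genes were lower together. Capitals mark the 1 match to CCAAT and the 1 match to GGGCGG, each searched on both strands, which occur in the 250 bases before the start of 38.8% and 49.3% of tested genes with a promoter.
Between Psmb9 and Tap1, in the direction of Tap1, chr17:34187331-34187555: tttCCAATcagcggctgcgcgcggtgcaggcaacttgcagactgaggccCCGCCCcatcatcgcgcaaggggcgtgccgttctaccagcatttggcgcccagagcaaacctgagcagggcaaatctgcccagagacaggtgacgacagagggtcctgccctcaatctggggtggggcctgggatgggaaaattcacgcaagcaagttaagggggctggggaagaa

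Other immune response genes showed few calls against the mean of the models. Of 18 genes induced by interferon, 1 was higher and 1 lower relative to the mean of the models (17% and 12.4% of all genes). They were Irf1 (0.38) and Iigp1 (-1.51). The median of the list was -0.13, and no member differed from each model. Of 8 MHC class II genes 1 was higher, H2-DMa, and none was lower (17% and 12.4% of all genes). The call on Irf1 was lost without any 1 HRM-1 tumor or MVT-1 replicate 1, and that on H2-DMa without HRM-1 replicate 1 or 4. Both calls were also lost without the model 6DT1 and without the model M6. Without the host-rich tumors 5 interferon genes were lower and 1 was higher, and 3 MHC class II genes were higher. In that setting 3342 of all 19938 genes were lower and 3927 higher. Against single models the interferon list moved both ways. Of the 18, 9 were higher than in 6DT1 tumors with all tumors and 4 without the host-rich ones (20.3% and 17.9% of all genes). Lower than in M6 tumors were 7 and lower than in MVT-1 tumors 6 (14.9% and 9.07% of all genes). Iigp1 was not lower than in M6 (0.36).

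Genes of the Wnt pathway moved both ways, and those higher were 4 ligand genes and Notum. Of 27 genes, 5 were higher relative to the mean of the models, near the 17% of all genes, and 7 were lower, above the 12.4%. Of the 27 differences 19 were below 0. All 5 higher genes were higher than in each model (4.04% of all genes). Wnt10a, a ligand of the canonical pathway, was at 11.11, 10.68, 10.99 and 10.68 in HRM-1 tumors, against 7.28, 8.02 and 9.73 in the 16 others (2.82 ± 0.22, SE, 7.05-fold). Wnt7b was at 10.55, 10.48, 10.51 and 10.25, against 6.77, 8.94 and 9.53 (1.89 ± 0.33, SE). The ligand genes Wnt7a and Wnt10b were higher by 1.42 and 0.78, and Notum, a secreted inhibitor of Wnt ligands, by 1.38. All 5 were above the 16 others in every HRM-1 tumor (4.4% of all genes), as were 614 of the 805 genes higher than in each model. Those lower included Nkd2 (-1.76) and Rnf43 (-1.06), both inhibitors acting in the receiving cell, and the secreted antagonist Sfrp1 (-1.53). Nkd2 was not lower than in 6DT1 (0.16), and Rnf43 was not called against MVT-1 nor, without the host-rich tumors, against 6DT1 (0.01). Sfrp1 was called against Met-1 alone, and its difference from 6DT1 without the host-rich tumors was 0.33.

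The Notch and BMP lists also held genes that moved either way. Jag2, a Notch ligand, was at 10.16, 9.87, 10.32 and 9.72 in HRM-1 tumors, against 6.98, 8.18 and 9.15 (1.94 ± 0.15, SE). Dll4, another ligand, and Heyl, a target of Notch, were higher than in each model by 0.91 and 1.20, and Hey1, a related target, was lower than the mean by 1.44. The value for Hey1 came from M6 and Met-1 (-3.34 and -3.22), as the differences from 6DT1 and MVT-1 were -0.04 and 0.82, neither called, and the one from MVT-1 was called higher without the host-rich tumors (limma, adjusted p = 0.0166). Of the 18 Notch genes 4 were higher and 3 lower (17% and 12.4% of all genes). Bmp7, a bone morphogenetic protein, was at 11.89, 11.82, 11.90 and 11.83, against 6.79, 8.63 and 10.54 (3.16 ± 0.31, SE, 8.96-fold). Fst, the gene for follistatin, which binds activins and BMPs, was at 10.30, 10.23, 10.51 and 10.71, against 7.35, 8.14 and 9.25 (2.27 ± 0.25, SE). Jag2, Bmp7 and Fst did not overlap between HRM-1 and the other tumors (4.4% of all genes were above the 16 others). Of 18 BMP and activin genes 3 were higher and 5 lower (17% and 12.4% of all genes).

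The TGF-β isoforms, the subject of the study, were not called against each model. Tgfb1 was at 10.97, 11.02, 11.02 and 11.01 in HRM-1 tumors, against 9.79, 10.64 and 11.29 in the others. The difference of 0.39 ± 0.13 (SE; limma, adjusted p = 0.0216) was called against 6DT1, M6 and Met-1 and not against MVT-1, where it was -0.19, and the call on the mean was lost after quantile normalization and without HRM-1 replicate 2, 3 or 4. Tgfb3 was at 10.17, 10.19, 10.29 and 10.08, against 10.02, 10.64 and 11.31 (-0.48 ± 0.15, SE, adjusted p = 0.0107), and of the single models only MVT-1 was called. Tgfb2 was at 8.03, 7.65, 7.89 and 8.24, against 6.60, 7.83 and 9.78, and was called against Met-1 (-1.48) but not against the mean (-0.14, adjusted p = 0.769). The HRM-1 tumors lay within the range of the 16 others for all 3 isoforms. Of 25 genes of the pathway, 2 were higher and 2 lower than in each model (4.04% and 1.28% of all genes). Smad3, a transducer of the signal, differed by 1.00 ± 0.11 (SE) and Thbs1, an activator of latent TGF-β, by 1.04 ± 0.20 (SE). The inhibitors Ski and Smad6 differed by -0.38 ± 0.04 and -0.60 ± 0.10 (SE). Of 15 target genes Cdkn2b was higher and Id2, which TGF-β can repress, lower than in each model (-1.18 ± 0.13, SE). Without the host-rich tumors the calls against 6DT1 on Tgfb1 (-0.08), Smad6 (-0.11) and Id2 (-0.23) were lost.

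Several genes of colony-stimulating factors and inflammatory cytokines were higher in HRM-1 tumors. Of 16, 9 were higher and 2 lower than the mean of the models (17% and 12.4% of all genes), with a median of 0.60, and 4 were higher than in each model (4.04% of all genes). Against MVT-1 the median was 0.16, with 5 higher and 3 lower. Il1a, the interleukin-1 alpha gene, was at 9.40, 9.15, 8.63 and 9.12 in HRM-1 tumors, against 4.76, 6.08 and 7.0 (3.02 ± 0.32, SE, 8.11-fold). Il23a, a subunit of interleukin-23, was at 9.26, 9.17, 9.73 and 10.19, against 6.25, 7.22 and 8.87 (2.24 ± 0.24, SE). Csf2 and Csf3, the colony-stimulating factors for granulocytes and macrophages and for granulocytes, were higher by 0.61 and 0.82. All 4 genes were above the 16 other tumors (4.4% of all genes), as were 614 of the 805 genes higher than in each model. Outside FVB/N, signal as high was found, with up to 10.07 for Il1a. Among 26 chemokine ligands 6 were higher and 2 lower, near the 17% and 12.4% of all genes, and Cxcl16 and the neutrophil attractant Cxcl1 were higher than in each model, by 1.61 and 1.23, Cxcl1 not being called against 6DT1 without the host-rich tumors (0.42).

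Markers of myeloid and lymphoid cells were followed beside these genes. Of 13 neutrophil genes 3 were called higher (17% of all genes), all 3 also higher than in each model (4.04%). They were Mmp9, a gelatinase (2.38 ± 0.43, SE), Cxcr2, the receptor of Cxcl1 (1.81 ± 0.28, SE), and Csf3r, the receptor of Csf3 (0.96 ± 0.13, SE). The median difference of the 13 was -0.05, with 7 below 0. Against Met-1, 3 were higher and 5 lower (17.1% and 13% of all genes). The neutrophil marker Ly6g was not called (0.37), and the mean score of the list was 0.22 to 0.37 in HRM-1 tumors and -0.40 to 1.41 in the others, so the groups overlapped. Of 13 macrophage genes 5 were higher (17% of all genes), led by Msr1, a scavenger receptor (1.39), but none against MVT-1. Of 15 T and NK cell genes 4 were lower (12.4% of all genes), among them Nkg7 (-1.54), though not against M6 (0.77). Of 7 B cell genes none was called. Of 9 mast cell genes 8 were lower than the mean of the models (12.4% of all genes) and none differed from each model. Cpa3, a mast cell protease, was at 5.77, 6.43, 6.58 and 6.05 in HRM-1 tumors, against 5.71, 8.66 and 10.65, and the difference from Met-1 was not called. Of the mast cell genes 6 were lower without the host-rich tumors (3342 of all 19938 genes), and Cpa3 differed from 6DT1 by -0.23, not called. The part of these cells in the cytokine values was not tested.

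Stromal genes were partly lower. Of 16 fibroblast and matrix genes 2 were higher and 5 lower (17% and 12.4% of all genes). Dcn, Lum and Pdgfra were lower than in each model (1.28% of all genes). Dcn, the decorin gene, was at 9.54, 9.72, 11.51 and 10.73 in HRM-1 tumors, against 11.02, 12.24 and 13.14 (-1.85 ± 0.34, SE). Lum, the gene of lumican, was at 6.43, 6.61, 8.60 and 7.02, against 8.09, 9.57 and 11.79 (-2.49 ± 0.52, SE). Replicate 3 was the highest HRM-1 tumor at both and overlapped the other models. The mean score of the 16 genes overlapped as well, at -0.76 to -0.03 in HRM-1 tumors and -0.90 to 0.89 in the others. Of the matrix proteases and their inhibitors Mmp9 was higher, and Mmp2 (-1.54) and Timp3 (-1.40) lower, than in each model, although Mmp2 was not called against 6DT1 without the host-rich tumors (-0.95). Of 14 endothelial genes 2 were lower (12.4% of all genes), and none of 10 adipocyte genes or 10 skeletal muscle genes was called, although the adipocyte median was -0.93, with the 2 host-rich 6DT1 tumors in the comparison.

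Genes of the response to ERK signaling depended on the host-rich tumors. Of 24, 9 were higher and 1 lower than the mean of the models with all tumors (17% and 12.4% of all genes), and none differed from each model. When the host-rich tumors were left out, 11 were higher and 7 lower (3927 and 3342 of all 19938 genes). Dusp5, a phosphatase of ERK, was then higher than in each model. Fosl1, a transcription factor of the AP-1 family, was at 10.30, 10.59, 10.40 and 10.34 in HRM-1 tumors, against 6.27, 9.10 and 10.05. It lay above all 16 others but was called against 6DT1 and Met-1 alone with all tumors, and against M6, MVT-1 and Met-1 but not 6DT1 (0.43) without the host-rich ones.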

How the data were processed

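RNA of 48 mammary tumors of 12 models was hybridized to Affymetrix Mouse Gene 1.0 ST arrays. The authors deposited 1 table of log2 signal per transcript cluster. The normalization is not given in the sources used here, and array medians lay between 6.76 and 6.99. The number of arrays limits the precision. Labels call the 4 tumors of a model biological replicates and give no batch. Of 35556 clusters, 21789 had 1 annotated gene symbol, 1621 had several and 12146 had none. A gene was taken from clusters with 1 symbol, and where it had more than 1 such cluster (999 genes), the brightest of them on average was used, giving 19938 genes.

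Differences were tested with limma 3.58.1 in R 4.3.3 (lmFit and eBayes, 12 model means, all 48 tumors). Contrasts were HRM-1 minus the mean of the 4 other FVB/N models, weighted equally, and minus each of them, with Benjamini-Hochberg adjustment over all genes. On simulated data, changes of 1 on the log2 scale in 200 of 19938 genes were recovered for 91% in the contrast with the mean. Against each model 83% were recovered. For changes of 0.5 these shares were lower, at 70% and 47.5%. The effect of host-rich tumors on these shares was not tested. Named were Pkhd1, Myc, Cdkn2b, the TGF-β isoforms, the 12 genes higher and the 12 lower with the largest difference from the nearest model, without predicted symbols, the leading members of each list and the neighbors of Mdm2, Myc and Cdkn2b. Other genes, the rows of neighbors, the shares by chromosome and the promoter searches were chosen after values were seen. The gene lists and the members described were chosen with earlier results of these data known, and lists received no test. A list score averages its members after each was centred on its median over the 48 tumors. Symbols, gene order and promoters came from RefSeq on GRCm38.p6, which placed 19856 genes. Alternatives covered normalization, choice of cluster, a filter on dim genes, the limma prior, the replicate number, the tumors in the fit, the methods' t-test, host-rich tumors, single tumors and single models. Tables were handled with Python 3.11.15, pandas 2.3.3, numpy 2.4.6 and scipy 1.17.1, and drawn with matplotlib 3.10.9.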

Additional observations from a re-analysis of the deposited data

Results flagged for a closer look

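Within the 4 HRM-1 tumors a single tumor stood far from the other 3 for some values, by Dixon's criterion, which chance meets in about 1 of 20 groups. It did so for 15 of 137 values tested, of which 6 were in replicate 3 and 6 in replicate 4. In replicate 3, log2 signal was 10.47 for Ccnd2, 12.20 for Ccng1, 12.77 for Cpm and 11.77 for Pa2g4, each below the other 3 tumors, and 9.17 for Pdgfra, above them. The score of the BMP list was 0.34 in replicate 3, against 0.20 to 0.22 in the others. In replicate 4, Ly6g was at 6.16, Nkg7 at 8.39 and Csf3 at 7.99, each above the other 3, and Macroh2a3 was at 7.64, below them. The T and NK cell score was 0.047 in replicate 4, against -1.02 to -0.93, and the B cell score was 1.39, against -0.13 to -0.04. Replicate 1 stood above the others for Mmp9, at 11.16, and Tnfrsf10b, at 11.29, and replicate 2 below them for Csf2, at 5.75.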

How the results depend on the processing

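The number of genes called moved with the choice of test and of models. The contrast with the mean gave 5853 genes as reported, 3720 when the 16 other tumors were pooled and 1671 with the methods' t-test after Benjamini-Hochberg adjustment, which also gave 2688 against 6DT1, 440 higher and 127 lower than in each model. Without adjustment the methods' t-test gave 7763 genes against MVT-1. With the FVB/N tumors alone in the fit 166 genes were lower than in each model. With the host-rich tumors left out 6204 were called against MVT-1. Fewer models to pass gave more genes: 1252 higher and 466 lower without M6, 1241 and 416 without MVT-1, and 392 lower without Met-1. Leaving out 1 tumor gave 4616 to 6305 genes against the mean, 5360 to 7600 against 6DT1, 5408 to 6633 against M6, 3245 to 4555 against MVT-1, 5285 to 6304 against Met-1, and 628 to 856 higher and 187 to 275 lower than in each model. Centring each array on its median gave 4161 higher and 1970 lower against Met-1, beside 3401 and 2591 as deposited, and moved the median over all genes in that contrast to 0.11.

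Replicate numbers did not pair the tumors throughout. Of 16 correlations of same-numbered tumors, taken on deviations from the model means, 4 exceeded 0.1 (range -0.40 to 0.24). HRM-1 replicate 1, however, correlated best with replicate 1 in each of the 4 models (r of 0.07 to 0.24), and the reason was not tested. With the number as a replicate block, 5832 genes were called against the mean and 793 were higher and 248 lower than in each model.

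Of 123 named genes, 89 kept their direction and their side of the threshold under all alternatives run. Tgfb2 reversed to 0.31 without Met-1 and Cdkn1b to 0.022 without M6, neither being called there. The adjusted methods' t-test no longer called Myc, Ccnd2, Krt7, Zmat3 and others. With the host-rich tumors left out, 27 of 32 growth genes were higher and 8 of 9 MHC class I processing genes lower (3927 and 3342 of all 19938 genes).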
